A study of Mus musculus with 6 samples.

Results

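The Wnt pathway was followed at the RNA level in mouse osteoblasts given corticosterone, the main glucocorticoid of mice. The gene set was a list of 52 pathway genes (ligands, receptors, inhibitors, cytoplasmic and nuclear components, and feedback targets). Its members were taken by gene symbol from the table of 24016 genes, and the list itself was drawn up with earlier results of these data known. The table held 48 of them, and *Wnt16*, *Fzd3*, *Sfrp1* and *Lgr5* were not analysed here. MC3T3-E1 cells are a preosteoblast line grown from mouse calvaria. The labels give a single subclone, wild type in genotype, so every library came from the same clonal line. In both groups osteogenic differentiation ran for 6 days on 10 mM β-glycerophosphate plus 50 μg/ml ascorbic acid. RNA-seq was then performed on 3 cultures given vehicle and 3 given 100 nM corticosterone for 24 h, and the labels also list calcitriol (10 nM) during treatment. The study calls the cultures biological replicates, and the labels give 2 different ranges of passage number.

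Wnt proteins are secreted glycoproteins that bind Frizzled receptors. In the canonical branch, a Frizzled together with LRP5 or LRP6 recruits Dishevelled, which disables the complex of Axin, APC and GSK-3β that otherwise marks β-catenin for degradation. Stabilised β-catenin then works with TCF/LEF factors in the nucleus, and *Axin2* is a widely used target gene of this step. In osteoblasts this branch promotes bone formation, while other Wnts act through ROR and RYK receptors without β-catenin. R-spondins, which bind LGR receptors, keep Frizzleds on the cell surface by restraining the ubiquitin ligases RNF43 and ZNRF3.

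Sequencing depth was 24337786, 25638645 and 19076586 reads counted on genes in the vehicle libraries. With corticosterone it was 18992332, 18259063 and 16020401, each below every vehicle library. Values below are normalized counts, that is reads divided by 1 size factor per library. Of the 8 osteoblast markers examined, all were detected and 7 were lower with corticosterone. Over all genes, scarce ones included, 8.2% were called lower and 8.49% higher. The log2 fold changes of the 7 ran from -0.15 (*Col1a1*) to -1.87 (*Bglap*). *Runx2* was at 2227, 2477 and 2312 with vehicle and 1027, 1092 and 1029 with corticosterone. The remaining marker, *Spp1*, which encodes osteopontin, was higher (log2 0.23, adjusted p = 0.00061). The summed level of the 8 was 1357311 to 1403415 with vehicle and 1182183 to 1237729 with corticosterone. Almost all of that sum was *Col1a1*, *Col1a2* and *Spp1*, so it says little about the other markers. Among markers of other lineages, 3 of 5 chondrocyte genes were in the table and summed to 3575 to 3986 with vehicle and 2936 to 3010 with corticosterone, with *Sox9* and *Col2a1* lower. Of 6 adipocyte markers, 2 were in the table. They summed to 7.72 to 21.1 with vehicle and 108 to 133 with corticosterone, almost all of it *Fabp4*, while *Plin1* was at 0 in every library but corticosterone replicate 3. Of 5 leukocyte markers, 3 were in the table and summed to 262 to 300.0 with vehicle and 214 to 239 with corticosterone. Most of that sum was *Lyz2*, which was lower (log2 -0.37, adjusted p = 0.020), while *Cd68* and *Csf1r* did not pass. No osteocyte, endothelial or muscle marker in the table (3, 3 and 2 genes) passed the test. The markers named here were picked out after their values were seen. The part of these shifts in the Wnt results was not tested. In RNA from whole cultures, fewer cells of a type and less RNA per cell cannot be told apart.

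Among the 48 Wnt genes, 24 were lower with corticosterone, 9 were higher and 15 did not pass the test (limma on log2 values over all 24016 genes, adjusted p under 0.05). The lower genes were 50% of the set, where 8.2% of all genes were called lower. The higher genes were 18.75%, where 8.49% of all genes were called higher. With a log2 fold change over 1 required as well, which is the threshold used below, 5 members were lower (*Wnt11*, *Rnf43*, *Dkk2*, *Lef1* and *Nkd2*), where 1.4% of all genes were. Past the same threshold, 2 were higher (*Lgr6* and *Notum*), where 1.38% of all genes were. The 3 values of one group lay wholly above or below those of the other in 36 of the 48 members (75%), against 29.6% of all genes. The median log2 fold change was -0.26 for the 48 members and -0.01 for all genes. In the main test no member was removed by a filter on low values. A mean normalized count under 10 was found for 5 (*Wnt4*, *Fzd9*, *Rspo3*, *Sfrp4* and *Nkd1*), and none of these 5 passed. The shares of all genes given above include scarce genes too. In a fit limited to the 13880 genes with a mean of at least 10, 2190 genes were higher and 2125 lower. The members called higher and lower in that fit were again 9 and 24. With libraries scaled to the same total, 7 members were higher and 25 lower, and 1703 and 2521 of all genes, in place of 2040 and 1970. The members are spread over the genome, with 9 of the 48 on chromosome 11.

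The call held under all 16 alternative settings for 15 members. They were *Wnt5b*, *Wnt10b*, *Fzd1*, *Fzd4*, *Fzd7*, *Lrp5*, *Ror1*, *Lgr6*, *Rnf43*, *Sfrp2*, *Dkk2*, *Notum*, *Tcf7*, *Lef1* and *Axin2*. Of the 18 other called members, 17 lost the call when the variance was not allowed to follow the expression level, with adjusted p of 0.0533 (*Fzd5*) to 0.274 (*Dkk3*) in that fit. *Wnt9a* kept it there.

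**Figure D1:**
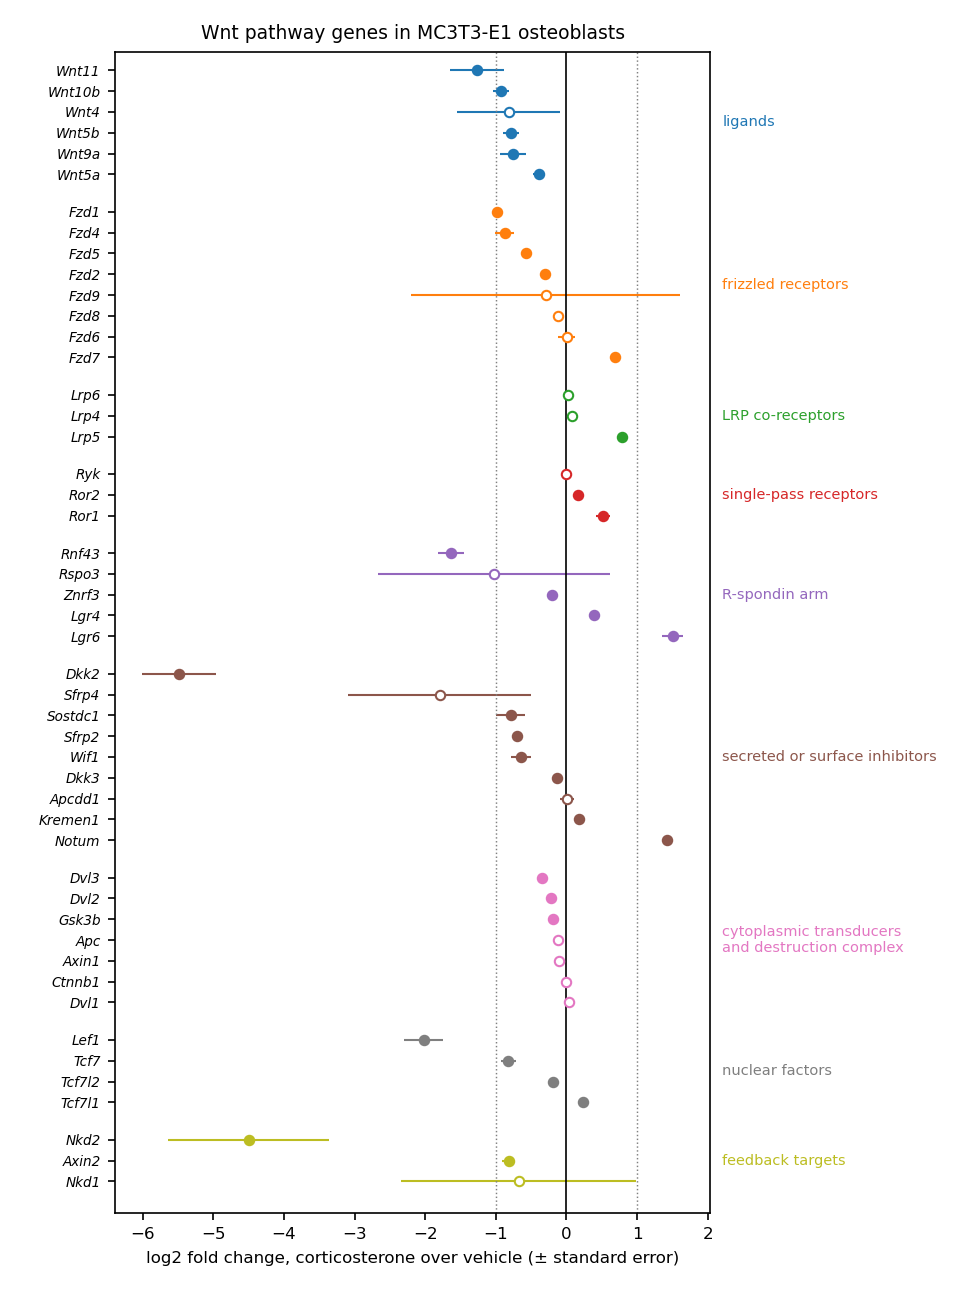
Log2 fold change of each of the 48 Wnt genes (x axis, corticosterone over vehicle), with the standard error from limma as a bar, grouped by role and coloured by group. Filled points had an adjusted p under 0.05, open points did not, and dotted lines mark a log2 fold change of 1 in each direction. The 5 ligands with filled points lie left of 0, while *Fzd7*, *Lrp5*, *Ror1*, *Lgr6* and *Notum* lie to the right at 0.52 to 1.51.

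Proximal promoters of members with differing responses are shown for reference, each 250 bases upstream of a RefSeq transcript start in GRCm38.p6, 5′ to 3′ on the strand of the gene. They belong to *Dkk2* (chr3:132085042-132085291, plus strand), *Axin2* (chr11:108920099-108920348, plus strand) and *Fzd1* (chr5:4758217-4758466, minus strand), which fell, and to *Fzd7* (chr1:59481897-59482146, plus strand) and *Lgr6* (chr1:135105277-135105526, minus strand), which rose. Capitals mark the motifs searched on either strand, which were the TCF/LEF core CTTTGA or CTTTGT and the glucocorticoid receptor half-site AGAACA.
Dkk2: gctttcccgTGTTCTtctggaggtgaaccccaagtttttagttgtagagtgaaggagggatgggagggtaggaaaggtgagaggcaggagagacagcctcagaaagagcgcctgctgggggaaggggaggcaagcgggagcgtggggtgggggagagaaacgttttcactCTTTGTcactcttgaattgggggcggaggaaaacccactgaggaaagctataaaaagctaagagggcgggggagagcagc
Axin2: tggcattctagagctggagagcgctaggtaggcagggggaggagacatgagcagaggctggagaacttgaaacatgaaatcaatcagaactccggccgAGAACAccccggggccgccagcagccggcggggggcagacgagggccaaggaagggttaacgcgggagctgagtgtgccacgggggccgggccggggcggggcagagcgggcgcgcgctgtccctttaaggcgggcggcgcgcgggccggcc
Fzd1: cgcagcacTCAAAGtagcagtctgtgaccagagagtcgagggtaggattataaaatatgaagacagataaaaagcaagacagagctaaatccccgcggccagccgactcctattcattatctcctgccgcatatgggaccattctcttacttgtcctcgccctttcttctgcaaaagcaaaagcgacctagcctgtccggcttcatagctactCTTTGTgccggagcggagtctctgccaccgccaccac
Fzd7: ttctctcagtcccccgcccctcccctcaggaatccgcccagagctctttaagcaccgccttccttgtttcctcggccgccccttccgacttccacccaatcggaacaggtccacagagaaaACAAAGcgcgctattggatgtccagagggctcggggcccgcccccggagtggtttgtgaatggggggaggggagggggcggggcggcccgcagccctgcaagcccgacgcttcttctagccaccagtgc
Lgr6: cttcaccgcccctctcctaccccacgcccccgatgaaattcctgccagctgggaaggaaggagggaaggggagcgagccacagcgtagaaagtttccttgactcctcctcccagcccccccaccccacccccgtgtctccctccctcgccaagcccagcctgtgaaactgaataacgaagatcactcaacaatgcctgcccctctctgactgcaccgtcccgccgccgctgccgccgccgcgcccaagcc

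Counted to the motif base farthest upstream, AGAACA lay 241 bases before the *Dkk2* start and 152 before the *Axin2* start. The TCF/LEF core lay 80 bases before the *Dkk2* start, 242 and 37 before the *Fzd1* start and 129 before the *Fzd7* start. The *Lgr6* window held none of these letters. RefSeq windows were found for 31 of the 48 members, 41 windows in all, since some genes have several starts. CTTTGA was in 14.6% of these windows and in 13.8% of all 32851 windows, CTTTGT in 17.1% and 16.5%, and AGAACA in 17.1% and 16.1%. The full palindromic glucocorticoid response element was in 0 of the 41 windows and in 0.387% of all. These are matches of letters in short windows and not binding sites.

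The ligands among the members fell. Of the 6 measured, 5 were lower with corticosterone, 0 were higher and *Wnt4* did not pass. *Wnt10b*, a canonical ligand that favours osteoblast over adipocyte fate, lies on chromosome 15 (98770712 to 98778150). It was at 337, 468 and 365 normalized counts with vehicle and at 191, 221 and 201 with corticosterone. The groups did not overlap, and the log2 fold change was -0.92 ± 0.11 (SE, adjusted p = 1.5e-05). *Wnt5b*, a mainly non-canonical ligand on chromosome 6 (119432531 to 119544347), was at 188, 217 and 231 with vehicle and 128, 114 and 127 with corticosterone. Every treated culture was again below every control, with a log2 fold change of -0.78 ± 0.12 (adjusted p = 0.00011).

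The other ligands followed at lower confidence. *Wnt5a*, the closest relative of *Wnt5b*, was at 489, 431 and 418 with vehicle and 350.1, 352 and 316 with corticosterone. Its fold change was smaller (log2 -0.39 ± 0.08, adjusted p = 0.0027). *Wnt9a*, a canonical ligand expressed in joints and skeletal elements, was at 65.7, 85.7 and 82.7 and then at 50.3, 44.2 and 43.5. Its log2 fold change was -0.75 ± 0.19 (adjusted p = 0.0097), and the adjusted p became 0.0532 without vehicle replicate 2 and 0.0706 without vehicle replicate 3. *Wnt11* was scarce, at 30, 25.5 and 30 with vehicle and 7.49, 15.5 and 14.1 with corticosterone, from 7 to 37 reads per library. It is a ligand of the planar polarity branch, and its log2 fold change was -1.26 ± 0.38 (adjusted p = 0.030). The adjusted p was 0.113, 0.0704 and 0.137 without vehicle replicate 1, 2 or 3, and 0.0981 and 0.0592 without corticosterone replicate 1 or 3. *Wnt4* was near the floor of detection of 3 reads, which is 2.32 to 3.84 normalized counts, at 4.05, 12.3 and 5.17 with vehicle and 5.35, 2.21 and 3.84 with corticosterone. Its groups overlapped (adjusted p = 0.56).

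Levels of different genes were compared only per kilobase of annotated exons. On that scale the 6 member ligands together made up 284 ± 24.6 (SD, n = 3) normalized counts per kb with vehicle and 167 ± 2.92 (n = 3) with corticosterone. The most abundant ligands of the cultures were however 2 genes outside the member list, named here after their values were seen. They are *Wnt10a*, at 1622 ± 23.9 per kb with vehicle and 1895 ± 90.3 with corticosterone, and *Wnt6*, at 630 ± 42.4 and 1221 ± 52.7 (SD, n = 3 each). These canonical ligands are neighbours on chromosome 1, 6193 bases apart. *Wnt6* was at 1387, 1284 and 1469.8 normalized counts with vehicle and 2545, 2721 and 2762 with corticosterone, with a log2 fold change of 0.96 ± 0.06 (adjusted p = 2.5e-09). *Wnt10a* rose less (log2 0.22 ± 0.04, adjusted p = 0.0015). Over all 12 ligands in the table the summed level per kb was 2555 ± 37.4 with vehicle and 3297 ± 141 with corticosterone (n = 3 each), so the sum was higher with treatment while that of the 6 members was lower.

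**Figure D2:**
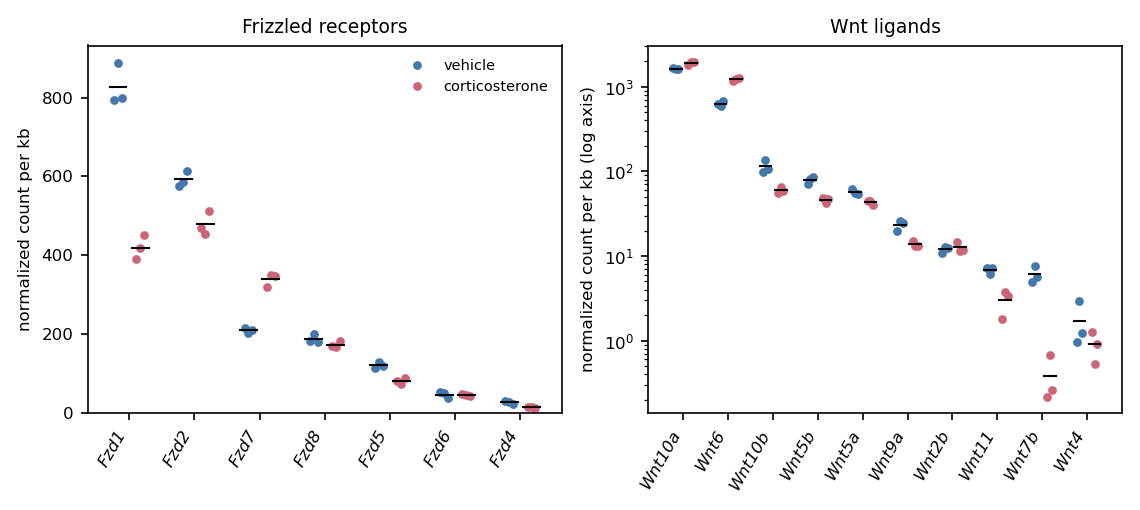
Normalized count per kilobase of exon in the 3 vehicle and 3 corticosterone cultures, with lines at the means. The left panel (linear axis) shows 7 of the 8 Frizzled receptors, with *Fzd9* near 0 left out. The right panel (log axis) shows the 10 Wnt ligands above 0 in every library. *Fzd1* falls from 827 to 419 and *Fzd7* rises from 210.0 to 339, while the upward shifts of *Wnt10a* and *Wnt6* contrast with lower points for *Wnt10b*, *Wnt5b* and *Wnt5a*.

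The Frizzled receptors changed in both directions. Of the 8 measured, 4 fell (*Fzd1*, *Fzd4*, *Fzd5* and *Fzd2*), *Fzd7* rose and *Fzd6*, *Fzd8* and *Fzd9* did not pass. *Fzd1* (chromosome 5, 4753839 to 4758035), the most abundant Frizzled with vehicle, was at 3333, 3728 and 3358 normalized counts and fell to 1638, 1753 and 1891. The log2 fold change was -0.98 ± 0.06 (SE, adjusted p = 3.1e-09), and the groups were far apart. *Fzd7* (chromosome 1, 59482424 to 59486955), from the same subfamily as *Fzd1* and *Fzd2*, was at 984, 917 and 954 with vehicle and at 1453, 1585 and 1574 with corticosterone. That rise had a log2 fold change of 0.69 ± 0.05 (adjusted p = 1.0e-07). The sequences of these 3 genes are similar, but between 0.777% and 1.9% of the 31-base words of each also occur in transcripts of another gene.

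*Fzd2*, the third gene of this subfamily, fell from 2109.9, 2148 and 2252 to 1717, 1668 and 1875 (log2 -0.31 ± 0.05, adjusted p = 0.00042). *Fzd4* (chromosome 7, 89404355 to 89413134), which also serves as receptor for the ligand norrin, was at 210.0, 196 and 161 with vehicle and 101, 112 and 95.9 with corticosterone. Its groups did not overlap (log2 -0.87 ± 0.13, adjusted p = 0.00011). *Fzd5* went from 787, 905 and 819 to 567, 508 and 622, a log2 fold change of -0.57 ± 0.08 (adjusted p = 4.9e-05). *Fzd5* shares 17.2% of its 31-base words mainly with the predicted gene *Gm38058*, which was at 1.62 or less in every library. *Fzd6* (259, 243 and 181 against 236, 228 and 216) and *Fzd8* (1101, 1202 and 1079 against 1017, 1004 and 1100.2) overlapped between groups, with adjusted p of 0.98 and 0.24. *Fzd9* had 4 reads or fewer in every library.

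The order of the Frizzled levels per kb therefore changed at the top. With vehicle it was *Fzd1* at 827 ± 52.7, *Fzd2* at 592 ± 20, *Fzd7* at 210.0 ± 7.46, *Fzd8* at 189 ± 11.0, *Fzd5* at 121 ± 8.87, *Fzd6* at 47.3 ± 8.59 and *Fzd4* at 28.1 ± 3.73 (SD, n = 3). With corticosterone it was *Fzd2* at 479 ± 29.6, *Fzd1* at 419 ± 30.1, *Fzd7* at 339 ± 16.1, *Fzd8* at 174 ± 8.73, *Fzd5* at 81.8 ± 8.22, *Fzd6* at 47.0 ± 2.02 and *Fzd4* at 15.3 ± 1.19. Neighbours in each order did not overlap, but the highest *Fzd1* value with corticosterone (451) was close to the lowest of *Fzd2* (455), and the highest *Fzd8* value with vehicle (201) to the lowest of *Fzd7* (202). *Fzd1* per kb was 1.38, 1.51 and 1.30 times *Fzd2* in the control cultures and 0.833, 0.917 and 0.880 times in the treated ones. The ratio of *Fzd7* to *Fzd1* was 0.274, 0.228 and 0.263 with vehicle and 0.821, 0.837 and 0.771 with corticosterone. Neither ratio overlapped between groups, and each had p = 0.1 in a two-sided exact permutation test, the smallest that 3 against 3 allows. *Fzd1* made up 41.0% ± 1.30 of the summed Frizzled level with vehicle and 26.9% ± 0.739 with corticosterone, and *Fzd7* made up 10.4% ± 0.682 and 21.8% ± 0.931. The sum itself was 2016 ± 63.9 and 1556 ± 77.1 per kb (SD, n = 3).

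Of the LRP co-receptors, only *Lrp5* passed the test. LRP5 and LRP6 both form the canonical receptor with a Frizzled, and mutations of LRP5 change bone mass in people. *Lrp5* (chromosome 19, 3584828 to 3686564) was at 6007, 5324 and 5545 normalized counts with vehicle and at 9587, 9496 and 10062 with corticosterone, with a log2 fold change of 0.79 ± 0.05 (adjusted p = 3.0e-09). *Lrp6* was at 3921, 3668 and 4084 and at 3926, 4006 and 3957, and its groups overlapped (log2 0.03 ± 0.05, adjusted p = 0.76). *Lrp4*, a relative that binds sclerostin, was at 1355, 1352 and 1394 and at 1441, 1421 and 1462. Its groups did not overlap, yet the difference was small (log2 0.08 ± 0.05, adjusted p = 0.35). Per kb, *Lrp5* was 2.15, 2.04 and 1.91 times as abundant as *Lrp6* in the control cultures and 3.43, 3.33 and 3.57 times in the treated ones (two-sided exact permutation p = 0.1, the smallest possible). With the longest transcript as the length of each gene, an alternative chosen after seeing the data, the mean ratios were 1.52 and 2.58.

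Among the single-pass receptors of the β-catenin-independent branch, *Ror1* and *Ror2* were higher and *Ryk* did not pass. *Ror1* (chromosome 4, 100095791 to 100444765) was at 186, 167 and 169 with vehicle and 239, 273 and 235 with corticosterone. That is a log2 fold change of 0.52 ± 0.10 (adjusted p = 0.0015) without overlap. *Ror2*, the receptor of WNT5A in skeletal development, was at 1836, 1835 and 1776 and then 2082, 1946 and 2094 (log2 0.17 ± 0.05, adjusted p = 0.021). The adjusted p of *Ror2* was 0.111 without vehicle replicate 3, 0.109 without corticosterone replicate 1, 0.0991 without corticosterone replicate 3 and 0.0738 with libraries scaled to the same total. *Ryk* was at 1931, 1835 and 1909 and at 1914, 1823 and 1897 (adjusted p = 0.94). Per kb, *Ror2* stood at 428 with vehicle and *Ror1* at 30.1.

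In the R-spondin arm, the LGR receptors rose and the ubiquitin ligases fell. *Lgr6* (ENSMUSG00000042793, chromosome 1, 134983301 to 135105276), an R-spondin receptor, was at 78.7, 101 and 106 normalized counts with vehicle and 310.5, 292 and 212 with corticosterone. Its lowest treated value was well above its highest control value, with a log2 fold change of 1.51 ± 0.15 (adjusted p = 1.6e-06). *Lgr4*, a related and more abundant receptor, was at 528, 478 and 461 and at 646, 589 and 688 (log2 0.39 ± 0.08, adjusted p = 0.0014). *Rnf43* (chromosome 11, 87662722 to 87735539), which encodes a ligase that removes Frizzleds from the membrane and is itself induced by Wnt signalling in many tissues, was at 144, 238 and 231 with vehicle and 53.5, 72.9 and 67.8 with corticosterone. It fell by 1.63 ± 0.18 on the log2 scale (adjusted p = 6.1e-06). Its homologue *Znrf3* was at 446, 438 and 444 and at 383, 376 and 390.2. The difference was small (log2 -0.21 ± 0.07, adjusted p = 0.049), and the adjusted p was 0.0676 to 0.124 with any of the 6 libraries left out, vehicle replicates 1 to 3 and corticosterone replicates 1 to 3, and 0.137 with DESeq2. *Rspo3*, the R-spondin among the members, had 7 reads or fewer in every library. *Rspo2*, outside the member list and named here after its values were seen, was at 300.0, 255 and 270.0 with vehicle. With corticosterone it was lower, at 175, 175 and 154 (log2 -0.715 ± 0.102, adjusted p = 7.3e-05).

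**Figure D3:**
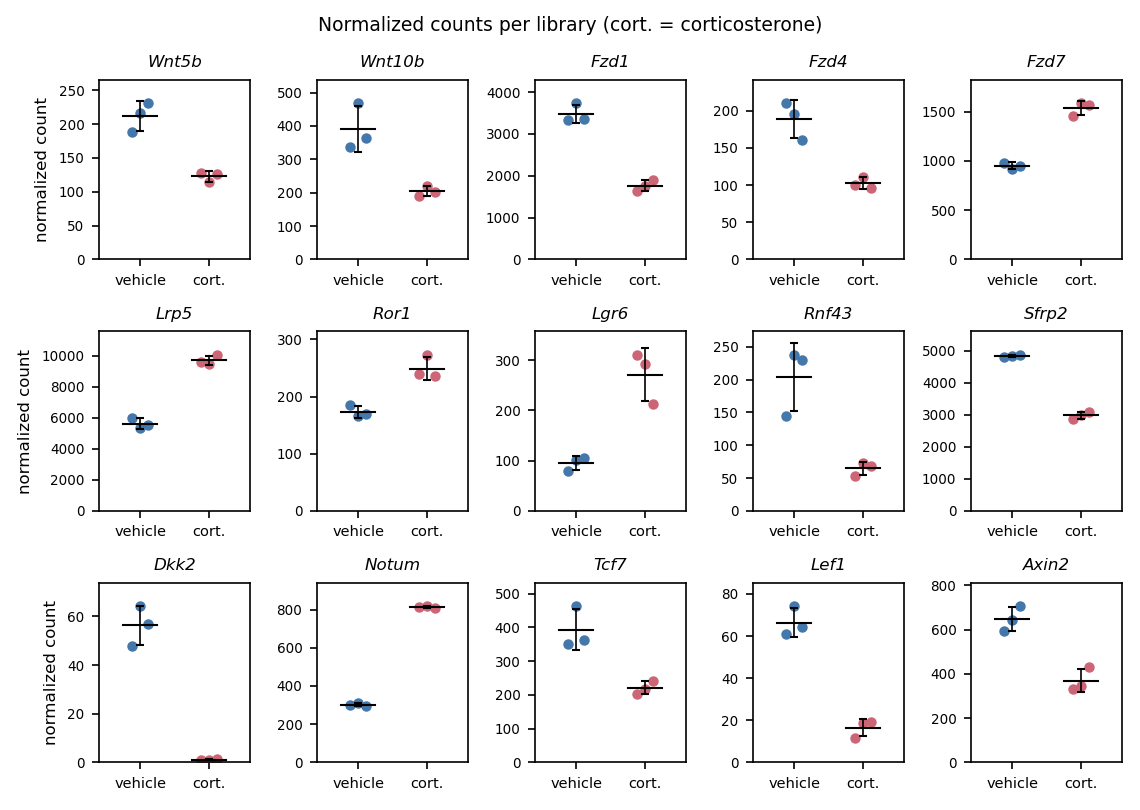
Normalized counts (y axis, linear from 0) of the 15 members whose call held under all 16 alternatives, in 3 vehicle (blue) and 3 corticosterone (red) cultures, with the mean and SD as bars. In no panel do the groups overlap: *Fzd7*, *Lrp5*, *Ror1*, *Lgr6* and *Notum* are higher with corticosterone and the other 10 are lower.

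Secreted and surface inhibitors moved both ways, with 5 of 9 lower, 2 higher and 2 not passed. *Dkk2* (ENSMUSG00000028031, chromosome 3, 132085292 to 132180304), a dickkopf that binds LRP5 and LRP6, was at 47.8, 64.1 and 56.9 normalized counts with vehicle. With corticosterone it was at 1.07, 1.10 and 1.28, which is a single read in each library, 3 reads in all against 197. The ratio of vehicle to corticosterone was 49.2, with an exact 95% interval for counting error alone of 16.6 to 240.8 (limma log2 -5.49 ± 0.52, adjusted p = 8.6e-07). *Notum* (chromosome 11, 120653788 to 120661175) encodes an enzyme that removes the lipid Wnt proteins need for receptor binding. It went the other way, from 302, 310.3 and 294 to 813, 816 and 809, with very tight replicates (log2 1.43 ± 0.06, adjusted p = 1.4e-10). Genes on the opposite strand share 33% of the 31-base words of *Notum*, chiefly *Notumos* (4.05, 12.3 and 8.27 with vehicle, 31, 28.7 and 32 with corticosterone). Whether the counting used the strand is not given in the sources used here, so the reads of these genes cannot be told apart where they overlap. Shared words also made up 14.6% for *Lef1*, 13.7% for *Sfrp2* and 13.2% for *Ctnnb1*. The overlapping genes were at most at 1.54 (*Gm43352*, at *Lef1*), 93.1 (*Gm26771*, at *Sfrp2*) and 120.0 normalized counts (*Ulk4*, at *Ctnnb1*).

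*Sfrp2* (chromosome 3, 83766321 to 83774316), which encodes a secreted Frizzled-related protein, was the most abundant member inhibitor per kb with vehicle (2249, against 1884 for *Dkk3*) but not with corticosterone (1386 against 1722). *Sfrp2* was at 4815, 4840.1 and 4873 with vehicle and fell to 2859.7, 2992 and 3099.7 (log2 -0.70 ± 0.04, adjusted p = 4.4e-09). *Dkk3*, a divergent dickkopf that does not act as a typical LRP antagonist, was at 6382, 6335 and 6266 and at 5929, 5708 and 5713. The log2 fold change of *Dkk3* was -0.13 ± 0.04 (adjusted p = 0.026), and without vehicle replicate 1, vehicle replicate 3, corticosterone replicate 2 or corticosterone replicate 3 the adjusted p was 0.0709, 0.0702, 0.0908 and 0.0817. *Wif1*, which encodes a Wnt-binding protein, was at 146, 142 and 154 and at 86.7, 82.8 and 116. It was lower by the test (log2 -0.64 ± 0.15, adjusted p = 0.0047, and 0.0699 without vehicle replicate 3).

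*Sostdc1*, a relative of sclerostin that also binds BMPs, was at 81.1, 84.1 and 67.2 and at 50.3, 35.3 and 49.9 (log2 -0.79 ± 0.20, adjusted p = 0.012). Its adjusted p was 0.0661 without vehicle replicate 1, 0.066 without vehicle replicate 2 and 0.0565 without corticosterone replicate 2. *Kremen1*, which encodes a dickkopf co-receptor, was at 2781, 3019 and 2930.3 and at 3260.1, 3174 and 3416 (log2 0.17 ± 0.05, adjusted p = 0.015). That small rise had an adjusted p of 0.0806 without vehicle replicate 1, 0.0856 without vehicle replicate 3, 0.0619 without corticosterone replicate 1, 0.0998 without corticosterone replicate 3 and 0.0527 with libraries scaled to the same total. *Apcdd1*, a membrane inhibitor, was at 196, 214 and 218 and at 193, 212 and 225 (adjusted p = 0.99). *Sfrp4* had 3 reads or fewer in every library.

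The cytoplasmic components changed by small amounts. Of the 7, 3 fell and 4 did not pass, and no log2 fold change exceeded 0.35 in size. β-catenin, encoded by *Ctnnb1*, was the most abundant of these transcripts per kb, at 1699 with vehicle and 1694 with corticosterone. Its normalized counts were 8590.5, 8986 and 8879.9 with vehicle and 8658, 8765 and 8964 with corticosterone (adjusted p = 0.98). The standard error of its log2 fold change was 0.04, and RNA levels do not show the amount of β-catenin protein. Of the Dishevelled genes, *Dvl3* fell from 2039, 2317 and 2222 to 1829, 1625 and 1712 (log2 -0.35 ± 0.06, adjusted p = 0.00030). *Dvl2* went from 1599, 1788 and 1596 to 1408, 1413 and 1439 (log2 -0.22 ± 0.05, adjusted p = 0.0071), while *Dvl1* overlapped between groups (1531, 1892 and 1635 against 1656, 1708 and 1799, adjusted p = 0.81). Neighbouring *Acadvl* shares part of the exon sequence of *Dvl2*, 16.6% of its 31-base words being found elsewhere. *Acadvl* was at 1243, 1066 and 1192 with vehicle and 1407, 1328 and 1419 with corticosterone (log2 0.249, adjusted p = 0.0078). Its part in the values of *Dvl2* was not tested.

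In the destruction complex, which holds β-catenin down in the absence of Wnt, *Gsk3b* was lower and the scaffolds did not pass. *Gsk3b*, the kinase, was at 1494, 1418 and 1509 with vehicle and 1317, 1280.1 and 1286 with corticosterone (log2 -0.19 ± 0.05, adjusted p = 0.014). Its adjusted p was 0.0522 without vehicle replicate 1, 0.0766 without vehicle replicate 3, 0.0572 without corticosterone replicate 2 and 0.058 without corticosterone replicate 3. *Axin1* was at 2376, 2462 and 2369.7 and at 2268, 2163 and 2291 (log2 -0.10 ± 0.04, adjusted p = 0.16), and with libraries scaled to the same total it did pass (adjusted p = 0.0313). *Apc* was at 1205, 1226 and 1413 and at 1192, 1154 and 1177 (log2 -0.12 ± 0.06, adjusted p = 0.23). Neither scaffold overlapped between groups.

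All 4 TCF/LEF genes, which encode the DNA-binding partners of β-catenin, passed the test, 3 lower and 1 higher. *Lef1* (ENSMUSG00000027985, chromosome 3, 131110471 to 131224356), itself a known Wnt target, was at 60.8, 74.1 and 64.1 normalized counts with vehicle and 11.8, 18.8 and 19.2 with corticosterone. No treated culture came near the controls, and the log2 fold change was -2.02 ± 0.27 (adjusted p = 4.5e-05). *Tcf7* (chromosome 11, 52252371 to 52283014), the gene of TCF-1 and also a known Wnt target, was at 351, 462 and 364 and fell to 203, 218 and 242 (log2 -0.82 ± 0.11, adjusted p = 3.0e-05). *Tcf7l1*, the gene of TCF-3, which acts mostly as a repressor, was at 3455, 3251 and 3428 and rose to 3868, 4053 and 4021 (log2 0.24 ± 0.04, adjusted p = 0.00073). *Tcf7l2*, the gene of TCF-4, was at 1233, 1161 and 1150.2 and at 1028, 1029 and 1057 (log2 -0.19 ± 0.05, adjusted p = 0.021). Its adjusted p was 0.0849 without vehicle replicate 1, 0.086 without corticosterone replicate 1, 0.0725 without corticosterone replicate 2 and 0.0511 without corticosterone replicate 3. Per kb, *Tcf7l1* was the most abundant of the 4 in both groups (861 and 1014) and *Lef1* the least (7.55 and 1.89).

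Of the 3 members grouped as feedback targets, 2 were lower and *Nkd1* did not pass. Wnt-induced members placed in other groups are given there, and among the inhibitors *Notum* was higher. *Axin2* (chromosome 11, 108920349 to 108950783), the inducible Axin whose transcript is often read as a gauge of canonical signalling, was at 595, 644 and 704 with vehicle and at 333, 345 and 431 with corticosterone. The log2 fold change was -0.82 ± 0.09 (adjusted p = 8.0e-06). *Nkd2* (ENSMUSG00000021567, chromosome 13, 73818534 to 73847631), which encodes an antagonist of Dishevelled, was at 30, 41.7 and 31 with vehicle and 6.42, 0 and 5.12 with corticosterone. There were 121 reads against 10, a ratio of 9.07 with an exact 95% interval for counting error of 4.77 to 19.4. The fitted log2 fold change of -4.50 ± 1.14 (adjusted p = 0.011) leaned on corticosterone replicate 2, the library at 0. Without it the value was -2.54 with an adjusted p of 0.0011, while leaving out vehicle replicate 1, 2 or 3 or corticosterone replicate 3 gave adjusted p of 0.0874, 0.0979, 0.162 and 0.0531. With a pseudocount of 0.01 in place of 0.1 the log2 fold change was -5.62 (adjusted p = 0.0845). *Nkd1*, its homologue, had 7 reads or fewer in every library.

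Beyond the member list, 103 further genes of the pathway were listed by role, of which 89 were in the table. Of these, 16 were higher, 22 were lower and 51 did not pass. That is 18.0% higher and 24.7% lower, where 8.49% and 8.2% of all genes were, scarce genes included. In the fit limited to the 13880 genes with a mean of at least 10, the shares called were larger, with 2190 genes higher and 2125 lower. In that fit 18 of these other Wnt genes were higher and 24 lower. The median log2 fold change of the 89 was -0.07. Among 11 genes known as Wnt targets in other settings, 4 were higher and 4 lower (36.4% each), and 3 did not pass. Of 22 further cytoplasmic components 2 were higher (9.09%, near the share of all genes) and 6 lower (27.3%). Of 24 genes of the planar polarity and calcium branch 4 were higher and 4 lower (16.7% each). Past the threshold, 3 of the 89 were higher (3.37%), where 1.38% of all genes were. *Prickle1*, a core planar polarity gene, went from 1747, 1514 and 1726 to 3684, 3581 and 3853 (log2 1.16 ± 0.06, adjusted p = 2.9e-10). *Dact2*, which encodes a Dishevelled-binding modulator, went from 2177, 1907 and 1871 to 4051, 4099 and 4525 (log2 1.09 ± 0.06, adjusted p = 1.2e-09). *Rock2*, the gene of a kinase that acts on the actin cytoskeleton, went from 3657, 3602 and 3601 to 7456, 7367 and 7192 (log2 1.02 ± 0.04, adjusted p = 1.6e-11). In these 3 genes every treated culture exceeded every control by a wide margin.

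Of the same 89, 2 were lower past the threshold (2.25%), where 1.4% of all genes were. *Tnfrsf19*, which encodes the receptor TROY and is a known Wnt target in some tissues, was at 2815, 3864 and 3584 with vehicle and 1233, 1499 and 1401 with corticosterone (log2 -1.30 ± 0.09, adjusted p = 2.5e-08). *Wnt7b*, a Wnt ligand that promotes bone formation in mice, was at 24.3, 37.0 and 27.9 and at 1.07, 3.31 and 1.28. It was counted with 105 reads against 5, a ratio of 15.8 with an exact 95% interval for counting error of 6.54 to 49.5 (limma log2 -4.06 ± 0.61, adjusted p = 0.00013).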

How the data were processed

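RNA-seq was performed on differentiated MC3T3-E1 cells, 3 cultures with vehicle and 3 with 100 nM corticosterone. Differential expression in the study was computed with DESeq2. The labels name genome build mm10. The aligner, the counting program and its strand setting are not given in the sources used here. The authors deposited 1 table of signal per gene and library, with the values named FPKM. Within each library 100% of them were whole multiples of 1 step, within 0.01 read, whatever the length of the gene, so they are read counts divided by 1 size factor per library, and a gene's 3-read floor is 2.32 to 3.84.

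The members, the role groups and the gene lists were chosen with earlier results of these data known. All members are named, and of the other Wnt genes those past the threshold, while genes named outside that rule are marked. The main test was limma 3.58.1 in R 4.3.3 (with a variance trend) on log2(value + 0.1) over all 24016 genes with a mean of at least 0.1, a minimum that removed none, with Benjamini-Hochberg adjustment. This design had assumed FPKM values and was kept. Fold changes are on that log2 scale, on which the pseudocount shrinks the change of low genes, except that a library at 0 can enlarge it (*Nkd2* and *Sfrp4*). Alternatives were pseudocounts, filters, scalings, no variance trend, a replicate block, edgeR 4.0.16 and DESeq2 1.42.0 on the recovered reads, and leaving out each library. The limma, edgeR and DESeq2 fits were checked on simulated counts.

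Groups share replicate numbers 1 to 3, but deviations of same-numbered libraries from their group means correlated at only -0.04, 0.00 and 0.02 over 13880 genes, so the numbers were not taken to pair cultures. Libraries of a group differed by more than sampling noise. Coordinates, exon lengths and symbols (for 23983 identifiers) came from GENCODE M21 for GRCm38, which matches mm10, and promoters from RefSeq. Intervals and floors cover counting error only.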

Additional observations from a re-analysis of the deposited data

How the results depend on the processing

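The counts of members higher and lower (9 and 24) and past the threshold (2 and 5) stayed within 1.5 times of these values under every alternative but those given here, and no called member changed direction. Without the variance trend 5 members were higher and 11 lower, with 3 lower past the threshold, and of the other Wnt genes 9 were higher and 10 lower, against 16 and 22. In that fit 873 of all genes were higher and 760 lower, in place of 2040 and 1970. With one library left out, 7 to 9 members were higher and 17 to 21 lower, with 2 higher and 3 to 5 lower past the threshold, the 3 without vehicle replicate 2. Of all genes 1419 to 1873 were then higher and 1148 to 1611 lower, the lowest count without vehicle replicate 3, and of the other Wnt genes 13 to 18 were higher and 18 to 19 lower. Scaling to the same total gave 1703 genes higher and 2521 lower, and 7 members higher and 25 lower. The replicate block gave 9 members higher and 23 lower, 2 and 5 of them past the threshold, and 16 other Wnt genes higher and 21 lower, and *Znrf3* was the member that lost its call (adjusted p = 0.0671). edgeR called 9 members higher and 24 lower, and DESeq2 9 and 23. Apart from the settings' own construction (fewer libraries, another variance model), the cause of these moves was not tested.

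With 3 cultures a group, an exact permutation test cannot go below p = 0.1. Depth limits *Wnt4*, *Fzd9*, *Rspo3*, *Sfrp4* and *Nkd1*, for which a difference was not detectable at this depth. Levels per kb depend on the transcript length assumed. RNA levels in cultures of a single clonal line do not show protein, and 1 dose and 1 time point were measured.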
